A study of Mus musculus with 20 samples.

Results

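A set of 9 genes of B cells and plasma cells was read from the count table of nuclei sorted from mouse spinal cord: Cd79a, Cd79b, Ighm, Cd22, Blk, Ms4a1, Cd37, Pax5 and Jchain. They were chosen by symbol, and each was found as 1 row among the 43629 genes of the table. Healthy animals were compared with animals in which active immunization had induced experimental autoimmune encephalomyelitis (EAE), an immune attack on the central nervous system that serves as a model of multiple sclerosis, and EAE nuclei were taken on day 15. Staining for NeuN, which marks most neuronal nuclei, and flow cytometry divided the nuclei into a NeuN-positive and a NeuN-negative sort. This gave 4 groups of 5 libraries: NeuN-negative healthy, NeuN-negative EAE, NeuN-positive healthy and NeuN-positive EAE. The labels give no strain, age, sex, antigen or adjuvant and do not say how many mice a library holds.

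B cells recognise antigen with a membrane immunoglobulin. Its first form is IgM, whose heavy chain constant region is encoded by Ighm, and it signals through the paired chains encoded by Cd79a and Cd79b. Src-family kinases such as the product of Blk carry the signal on, while Cd22 encodes a sialic acid binding receptor that damps it. Ms4a1 encodes CD20, a membrane protein of mature B cells and the target of antibodies that deplete B cells in multiple sclerosis. Cd37 encodes a tetraspanin that is abundant on B cells and is also found on other leukocytes. Pax5 is the transcription factor that commits a cell to the B lineage and is switched off when a B cell becomes a plasma cell. Plasma cells secrete antibody, and Jchain encodes the joining chain that links secreted IgM and IgA into polymers. A healthy spinal cord holds few B cells, mostly in the meninges, and in EAE they can enter with other leukocytes.

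Promoter windows were compared because several of the genes moved together in these libraries. RefSeq (GRCm38.p6) gave a window for 5 of the 9 genes, Cd22, Cd79a, Cd37, Pax5 and Jchain, and none was used for Cd79b, Ms4a1, Ighm or Blk. Each window holds the 250 bases before the RefSeq start. It was searched on both strands for 4 motifs: the palindrome CCCNNGGG bound by EBF factors, the ETS core GGAAGT, the octamer ATGCAAAT and the E-box CAGGTG. The windows of Cd22, Cd79a and Cd37 are shown because they held matches, which are in capitals and read on either strand.
Cd22 (chr7:30879029-30879278, minus strand): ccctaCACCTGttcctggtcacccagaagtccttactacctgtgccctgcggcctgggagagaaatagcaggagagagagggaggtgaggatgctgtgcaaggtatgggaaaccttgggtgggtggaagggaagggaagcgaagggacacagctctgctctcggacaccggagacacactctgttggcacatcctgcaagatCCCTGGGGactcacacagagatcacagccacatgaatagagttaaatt
Cd79a (chr7:24897247-24897496, plus strand): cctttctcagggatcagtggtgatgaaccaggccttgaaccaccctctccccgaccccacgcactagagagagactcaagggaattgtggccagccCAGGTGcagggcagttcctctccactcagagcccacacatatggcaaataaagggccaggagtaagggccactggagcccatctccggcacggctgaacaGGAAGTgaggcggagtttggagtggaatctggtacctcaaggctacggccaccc
Cd37 (chr7:45238840-45239089, minus strand): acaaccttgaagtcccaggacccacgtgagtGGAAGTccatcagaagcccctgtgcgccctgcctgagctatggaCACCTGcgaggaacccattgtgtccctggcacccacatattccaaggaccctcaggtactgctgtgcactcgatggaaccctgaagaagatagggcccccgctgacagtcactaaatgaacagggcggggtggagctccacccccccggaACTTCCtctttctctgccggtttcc
The window of Cd22 held 1 EBF palindrome and 1 E-box, that of Cd79a 1 ETS core and 1 E-box, and that of Cd37 2 ETS cores and 1 E-box. The windows of Pax5 and Jchain held none of the 4 motifs in these letters. Among 32817 RefSeq windows of the same length, 11.8% held the EBF palindrome, 19.7% the ETS core, 1.6% the octamer and 17.2% the E-box. The RefSeq starts of these 3 genes lie within their GENCODE spans, so the windows of Cd22 and Cd37 are wholly, and that of Cd79a partly, inside the annotated genes. A match describes the letters of a window and is not evidence of binding.

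In GENCODE M21 (GRCm38) 8 of the 9 genes are annotated as protein-coding and Ighm as an immunoglobulin constant gene. Ighm lies at chr12:113418558-113422730 on the minus strand, with 1886 bases of exon. Cd79a lies at chr7:24897381-24902197 on the plus strand and Cd79b at chr11:106311341-106314762 on the minus strand. Cd22 lies at chr7:30865402-30880342, Cd37 at chr7:45233632-45239115 and Pax5 at chr4:44524757-44710487, all on the minus strand. Ms4a1 lies at chr19:11249675-11266241, Blk at chr14:63372836-63417037 and Jchain at chr5:88519809-88527891, also on the minus strand. Whether strand was used in counting is unknown here, so reads shared with a partner on the other strand cannot be told apart. Exon bases are shared by Cd22 with the antisense gene Gm29439 (479 bases), by Pax5 with Gm12462 (125 bases) and 5730488B01Rik (636 bases), and by Cd37 with Tead2 (13 bases).

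Library totals ran from 3149209 to 37689267 counts. Expression is given as CPM, the usual unit of counts scaled to the size of the library, here with TMM factors over the 20 libraries, and a gene at 0 in a library may reach the CPM of 3 counts there, which was 0.0773 to 0.946 CPM by library and covers counting error only. Values in parentheses with ± are SD over 5 libraries for CPM and SE for log2 fold changes. P-values are from edgeR's quasi-likelihood test with Benjamini-Hochberg adjustment over all genes tested, and a gene was called at an adjusted p under 0.05. They measure the spread between libraries, which may be technical, since the labels do not show separate mice. NeuN-negative EAE replicates 2 and 4 stood apart. They were the shallowest, with 3149209 and 4104125 counts, held 14.6% and 9.83% mitochondrially encoded counts, and had 2754 and 1906 CPM over 1659 olfactory and vomeronasal receptor genes, against 28.9 to 521 CPM in the other 18 libraries. Fits without mice EAE 2, EAE 4 and healthy 3 are given where they change a call or sign or clearly move a value. Here a mouse stands for both sorts of a replicate number, which is an assumption. Healthy NeuN-negative replicate 3 was the shallowest of its group, with 8336330 counts, though replicate 4 was close at 8688135. It also had the highest mitochondrially encoded share and receptor gene level of that group, 4.51% and 373 CPM. NeuN-negative EAE replicate 5, which was kept, was higher in both, at 7.94% and 521 CPM. Neither of these shares and levels alone gives the set left out. Rbfox3, which encodes NeuN, was at 313 ± 33.3 CPM in NeuN-positive and 29.7 ± 10.7 CPM in NeuN-negative nuclei of healthy mice.

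In NeuN-negative nuclei, 6 of the 9 genes were higher in EAE than in healthy mice and 0 were lower, while 15.1% of the 17604 genes tested were called higher and 12.6% lower. All 9 passed the count filter. Their median log2 fold change was 2.77, against 0.05 over all genes tested. For 5 of the 6, Cd79a, Cd22, Blk, Ms4a1 and Pax5, every EAE library lay above every healthy library, which held for 7.04% of the genes tested. Cd79a, Ms4a1 and Blk passed the count filter through their EAE libraries, as most healthy ones were too low. The filter itself thus favoured the separation of these genes. Cd79b was called with overlapping groups, and Ighm, Cd37 and Jchain were not called. In bulk libraries, more B cells and more RNA of a gene per cell cannot be told apart.

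The chains that signal for the antigen receptor were scarce in healthy mice. Cd79a in NeuN-negative replicates 1 to 5 was at 0.914, 0.447, 0.129, 0 and 0.979 CPM in healthy and 1.03, 2.84, 4.41, 7.81 and 1.46 CPM in EAE mice. The lowest EAE library was just above the highest healthy one. The log2 fold change was 3.10 ± 0.96 (adjusted p = 0.0256), from 68 counts in all in healthy and 158 in EAE libraries. This call was lost without EAE replicate 4 (adjusted p = 0.0871) and without healthy replicate 1 (0.0541), 2 (0.0819) or 4 (0.0667), and without a count filter (2.60, adjusted p = 0.056). Without both shallow EAE mice and healthy 3 the log2 fold change was 2.15 (adjusted p = 0.0736). Cd79b was at 4.06, 1.83, 2.32, 4.55 and 1.42 CPM in healthy and 21.5, 6.93, 19.99, 4.20 and 13.3 CPM in EAE mice. EAE replicates 1, 2, 3 and 5 were above all healthy libraries, and replicate 4 lay among them. Cd79b rose by 2.42 ± 0.52 on the log2 scale (adjusted p = 0.00302).

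Ighm, the heavy chain of the receptor, was not called, unlike its signalling chains, and a difference between these genes was not tested. It was at 73.2, 86.5, 62.0, 69.0 and 64.4 CPM in healthy and 95.1, 26.2, 276, 46.2 and 81.4 CPM in EAE NeuN-negative libraries. EAE replicate 3 was far above the other 4, replicates 2 and 4 were below every healthy library, and the groups overlapped. The log2 fold change was 0.75 ± 0.44 (adjusted p = 0.21). It was -0.00285 without EAE replicate 3 (adjusted p = 0.995) and 1.29 (adjusted p = 0.0199) without mice EAE 2, EAE 4 and healthy 3.

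Cd22, the inhibitory receptor, had the largest log2 fold change of the 9 genes. It was at 1.98, 1.42, 1.16, 1.93 and 1.19 CPM in healthy and 26.5, 21.4, 46.6, 16.8 and 32.6 CPM in EAE NeuN-negative libraries. The lowest EAE library stood well above the highest healthy one, and replicate 3 was the highest. Cd22 rose by 4.47 ± 0.38 on the log2 scale (adjusted p = 1.49e-06), from 1.54 ± 0.399 to 28.8 ± 11.6 CPM, and the call held in each alternative fit tried. Blk, the kinase, was at 1.27, 0.934, 0.900, 0.114 and 0.541 CPM in healthy and 5.88, 6.93, 9.27, 11.6 and 2.23 CPM in EAE libraries. EAE replicate 4 was the highest and replicate 5 the lowest of its group. Blk rose by 3.53 ± 0.72 (adjusted p = 0.00231).

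Ms4a1, which encodes CD20, was at 1.93, 0.528, 0, 1.14 and 0.490 CPM in healthy and 3.38, 9.14, 6.37, 2.402 and 6.10 CPM in EAE NeuN-negative libraries. EAE replicate 2 was the highest and replicate 4 the lowest, and the groups did not overlap. Ms4a1 rose by 3.02 ± 0.85 on the log2 scale (adjusted p = 0.0162), a call lost without healthy replicate 2 (adjusted p = 0.057). Pax5, the lineage factor, was at 5.23, 1.99, 2.44, 3.18 and 0.876 CPM in healthy and 12.1, 8.83, 32.1, 8.61 and 18.5 CPM in EAE libraries. EAE replicate 3 was the highest, and all 5 were above the healthy range. Pax5 rose by 2.77 ± 0.52 (adjusted p = 0.00132).

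Cd37 was already abundant in healthy NeuN-negative nuclei, at 42.3, 54.4, 52.0, 68.1 and 33.6 CPM, and was at 101, 23.3, 170.2, 50.8 and 67.4 CPM in EAE. EAE replicates 1 and 3 were above the healthy range, replicate 2 was below it, and the log2 fold change was 0.91 ± 0.40 (adjusted p = 0.096). Cd37 was called without EAE replicate 2 (1.15, adjusted p = 0.0277) and without mice EAE 2, EAE 4 and healthy 3 (1.43, adjusted p = 0.00697), and its log2 fold change was 0.45 (adjusted p = 0.344) without EAE replicate 3. Microglia markers, summed over 9 genes, were at 579.9 to 714 CPM in healthy and 360.3 to 1315 CPM in EAE NeuN-negative libraries. Of these markers 1 was higher, Cx3cr1, and 1 lower, Fcrls, against 15.1% and 12.6% of all genes tested. The part of these markers in the level of Cd37 was not tested. Jchain, the plasma cell gene, was at 1.07, 0.528, 0, 1.25 and 1.44 CPM in healthy and 1.69, 3.47, 2.79, 3.60 and 0.0859 CPM in EAE libraries. EAE replicate 5 held 1 count and lay within the healthy range, and the log2 fold change was 1.74 ± 0.99 (adjusted p = 0.195), or 0.75 (adjusted p = 0.531) without the same 3 mice.

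**Figure D1:**
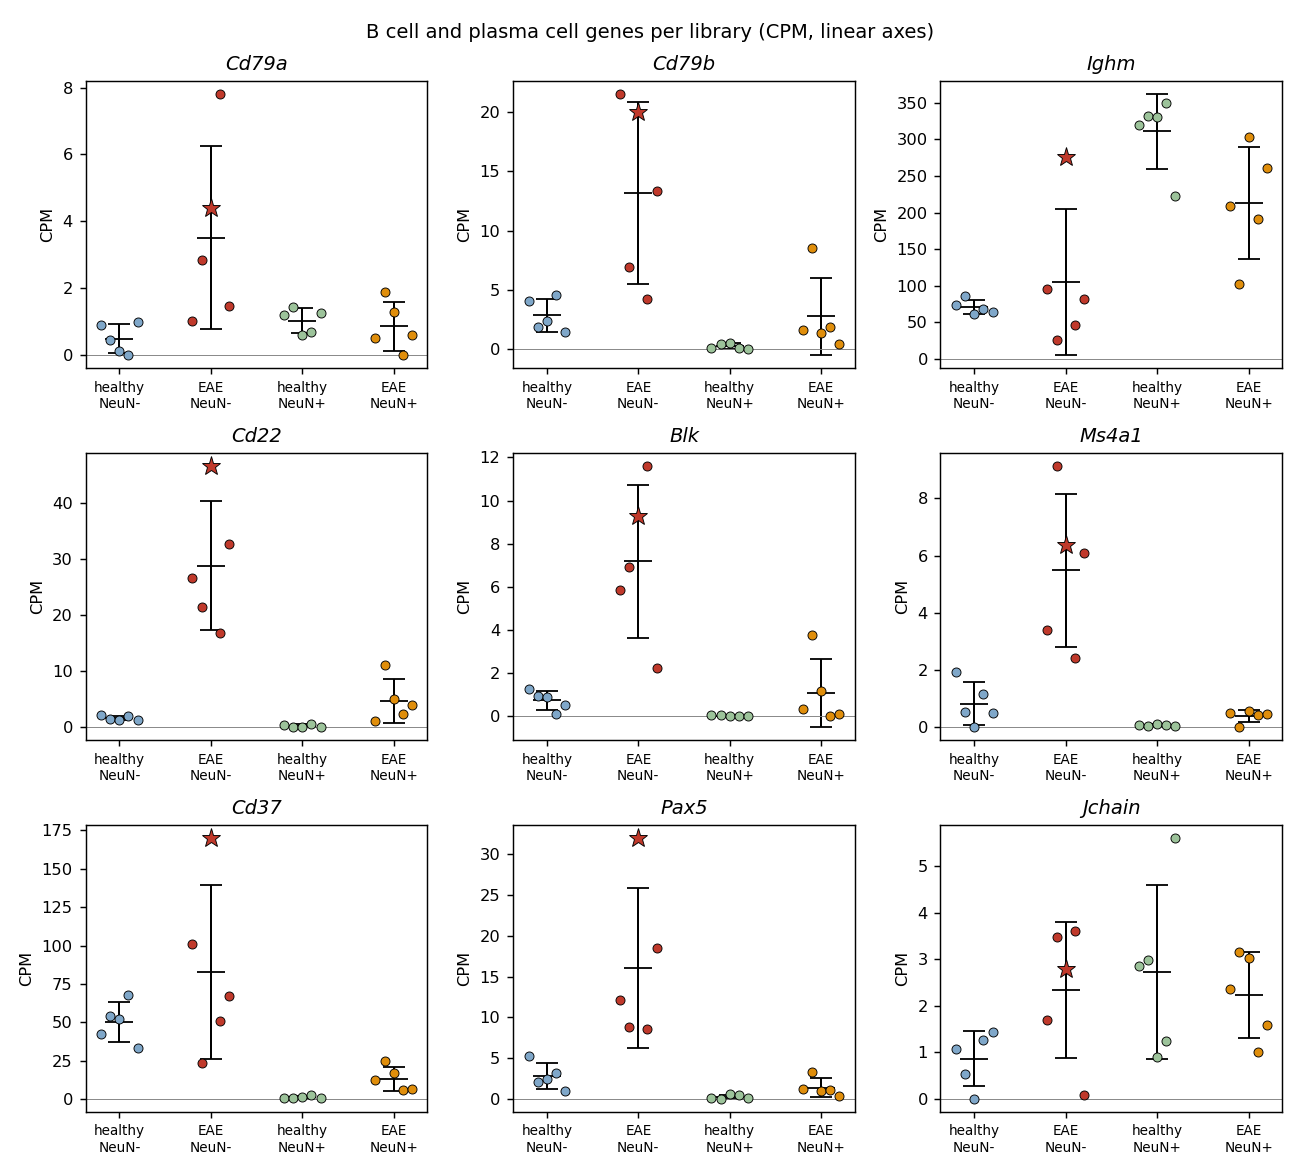
CPM (linear axes, 1 panel a gene) in each of the 20 libraries by group, with points for replicates 1 to 5 from left to right, a star for NeuN-negative EAE replicate 3, and bars for mean ± SD. Cd22, Blk, Ms4a1, Pax5 and Cd79a in NeuN-negative EAE libraries lie above all healthy NeuN-negative ones, whereas Ighm is highest in NeuN-positive libraries.

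NeuN-negative EAE replicate 3 was the deepest EAE library of its sort, with 15525441 counts. It had the lowest mitochondrially encoded share of the 5, 2.18%, and the lowest receptor gene level, 193.6 CPM. It ranked first of 5 for Cd22, Ighm, Pax5 and Cd37, second for Cd79a, Cd79b, Ms4a1 and Blk, and in the middle for Jchain. Ighm stood at 276 CPM against 95.1 CPM in the next library, Cd37 at 170.2 against 101 CPM, Pax5 at 32.1 against 18.5 CPM, and Cd22 at 46.6 against 32.6 CPM. Its ratio to the median of the other 4 libraries was 4.33 for Ighm, 3.06 for Pax5, 2.88 for Cd37 and 1.94 for Cd22. Over 17597 genes the same ratio had a median of 1.05 and a 90th percentile of 2.25, and 1.07% of genes reached that of Ighm. The ratio of Ms4a1 (1.34) was reached by 34.8% of genes and that of Jchain (1.08) by 48.3%.

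Ranked by their ratio to the highest of the other 19 libraries, the 10 genes that led replicate 3, among those with at least 50 counts in it, included Mir5107, BC023105, Gm43302, Parp3, AU020206, Gbp8, H2-Q5, Slc7a7 and Trim21. Gbp8 is a guanylate-binding protein gene, H2-Q5 a gene of MHC class I and Trim21 an intracellular antibody receptor gene. The kappa light chain and delta chain genes were also highest in replicate 3, with Igkc at 21.2 against 11.8 CPM in the next EAE library and Ighd at 42.9 against 15.1 CPM. Ighg2c, Igha and Iglc2 also ranked first of the 5, and Ighg3 second. Several other B lineage genes did not: Ighg2b and Cr2 ranked 3 of 5, Ighg1 and Fcer2a 4 of 5, and Mzb1 5 of 5. Each of these genes was highest in EAE replicate 2 or 4, the shallow libraries with high receptor gene levels. Ighg1 was at 2.68 against 7.21 CPM and Cr2 at 6.48 against 15.1 CPM in the highest library. The plasma cell genes Mzb1 and Xbp1 thus went opposite ways, as Xbp1 ranked first, at 98.97 against 83.01 CPM in the next library. Cd3e, a T cell gene, was not highest, at 15.2 CPM against a median of 17.7 CPM in the other 4, nor was the B lineage factor gene Ebf1, at 28.4 CPM, the lowest of the 5. Genes of other cell types were highest in replicate 3 too, among them Csf1r of microglia and macrophages, at 579.6 against 554 CPM in the next library, and S100a8 of neutrophils, at 80.8 against 72.9 CPM. Their part in its B cell gene levels was not tested. Summed macrophage markers were 2140 CPM in replicate 3 and 658.5 to 2499.9 CPM over the 5 libraries. Leaving replicate 3 out kept the 6 calls of the NeuN-negative comparison, with log2 fold changes of 4.21 for Cd22, 3.39 for Blk, 2.98 for Cd79a, 2.93 for Ms4a1, 2.34 for Pax5 and 2.19 for Cd79b.

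**Figure D2:**
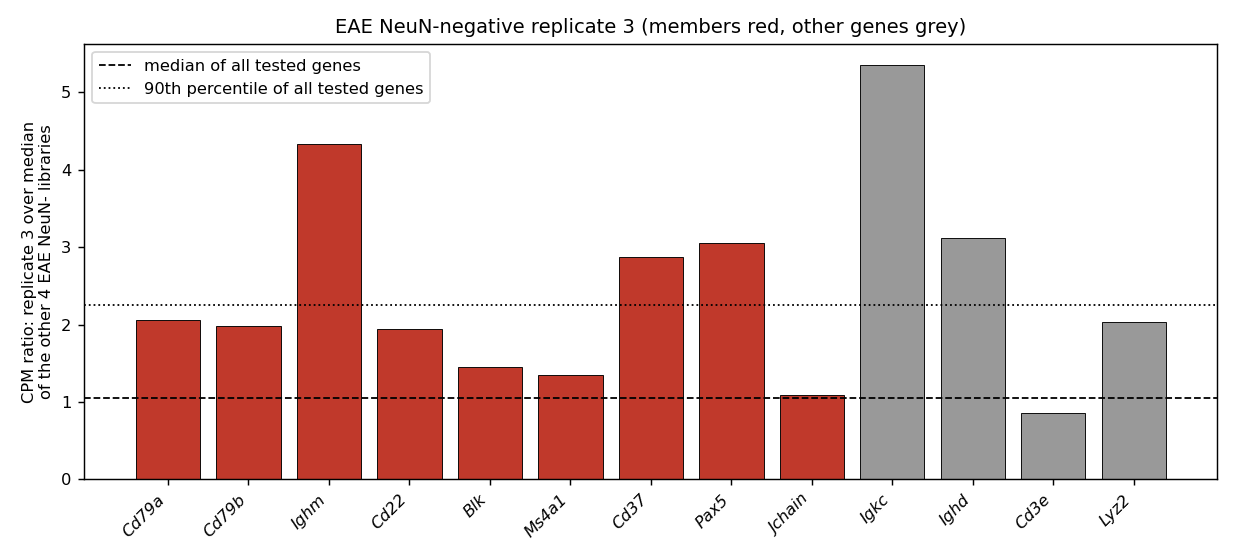
Ratio of CPM in NeuN-negative EAE replicate 3 to the median of the other 4 libraries of that group (linear axis), for the 9 genes in red and 4 other immune genes in grey. Ighm, Pax5 and Cd37 lie above the dotted line, the 90th percentile of all genes at 2.25, and Jchain, at 1.08, lies next to the dashed line, the median at 1.05.

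In NeuN-positive nuclei, 5 of the 9 genes passed the count filter, and 2 of them, Cd22 and Cd37, were higher in EAE. None of the 5 was called lower, while 6.55% of 16675 genes were called higher and 3.68% lower. Their EAE libraries lay above all healthy ones for both, which held for 5.16% of the genes tested. The median of the 5 was -0.19 against -0.03 over all genes. Cd22 was at 0.350, 0, 0, 0.479 and 0 CPM in healthy and 0.998, 11.1, 4.92, 2.16 and 3.87 CPM in EAE replicates 1 to 5. It was at 0 in 3 healthy libraries, and EAE replicate 2 was the highest. Cd22 rose by 4.99 ± 1.104 on the log2 scale (adjusted p = 0.0118), against 14 counts in all in healthy libraries. It passed the count filter through its EAE libraries, as every healthy one was too low, so the filter itself favoured its separation.

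Cd37 was at 0.749, 0.714, 1.19, 2.47 and 0.526 CPM in healthy and 12.2, 24.6, 16.8, 6.19 and 6.63 CPM in EAE NeuN-positive libraries. The lowest EAE library was above the highest healthy one. Cd37 rose by 3.69 ± 0.55 (adjusted p = 0.000775). In the same libraries the microglia markers summed to 23.3 to 43.8 CPM in healthy and 96.2 to 187 CPM in EAE mice, with 3 of 8 tested higher and 0 lower. Macrophage markers summed to 7.85 to 29.6 and 291 to 1861 CPM, with 9 of 9 tested higher, and their part in the changes of Cd22 and Cd37 was not tested. None of these markers was at 0 over the EAE group. NeuN-positive EAE replicate 2, the highest for Cd22 and Cd37, also had the highest sum of 8 oligodendrocyte markers, 97780.1 CPM against 10723 to 49913 CPM in the other 4, and the lowest sum of 8 neuron markers, 18703 CPM. Without mice EAE 2, EAE 4 and healthy 3 the log2 fold change was 4.37 for Cd22 (adjusted p = 0.0302) and 3.60 for Cd37 (0.00269).

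Cd79b, Ms4a1, Pax5 and Blk fell below the count filter in NeuN-positive nuclei. Cd79b was at 1.57, 8.52, 1.34, 1.87 and 0.394 CPM in EAE and at most 0.497 CPM in healthy libraries. Blk was at 0.356, 3.79, 1.19, 0 and 0.131 CPM in EAE and at most 0.0649 CPM in healthy libraries. Pax5 was at 1.14, 3.32, 0.945, 1.01 and 0.262 CPM in EAE and at most 0.596 CPM in healthy libraries. EAE replicate 2, the library with high oligodendrocyte and macrophage markers, was the highest for all 3 genes, and the part of those markers was not tested. Without a count filter, Cd79b was called at a log2 fold change of 3.67 ± 0.96 (adjusted p = 0.0138) and Blk at 4.84 ± 1.42 (adjusted p = 0.0316, against 4 healthy counts). Pax5 (2.49 ± 1.07, adjusted p = 0.129) and Ms4a1 (2.83 ± 1.52, adjusted p = 0.214) were not. With the filter, Cd79b and Pax5 were also called without healthy NeuN-positive replicate 3, and Cd79b without EAE NeuN-positive replicate 5.

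Cd79a, Ighm and Jchain were not called in NeuN-positive nuclei. Cd79a was at 1.20, 1.43, 0.596, 0.685 and 1.26 CPM in healthy and 0.499, 1.89, 1.29, 0 and 0.590 CPM in EAE libraries. These ranges overlapped (-0.20 ± 0.73, adjusted p = 0.88). Jchain was at 2.85, 2.99, 0.894, 1.23 and 5.61 CPM in healthy and 2.35, 3.16, 3.03, 1.01 and 1.57 CPM in EAE libraries, with healthy replicate 5 the highest (-0.19 ± 0.55, adjusted p = 0.844). The 95% interval of the difference was -1.77 to 1.37 for Cd79a and -1.38 to 0.99 for Jchain.

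**Figure D3:**
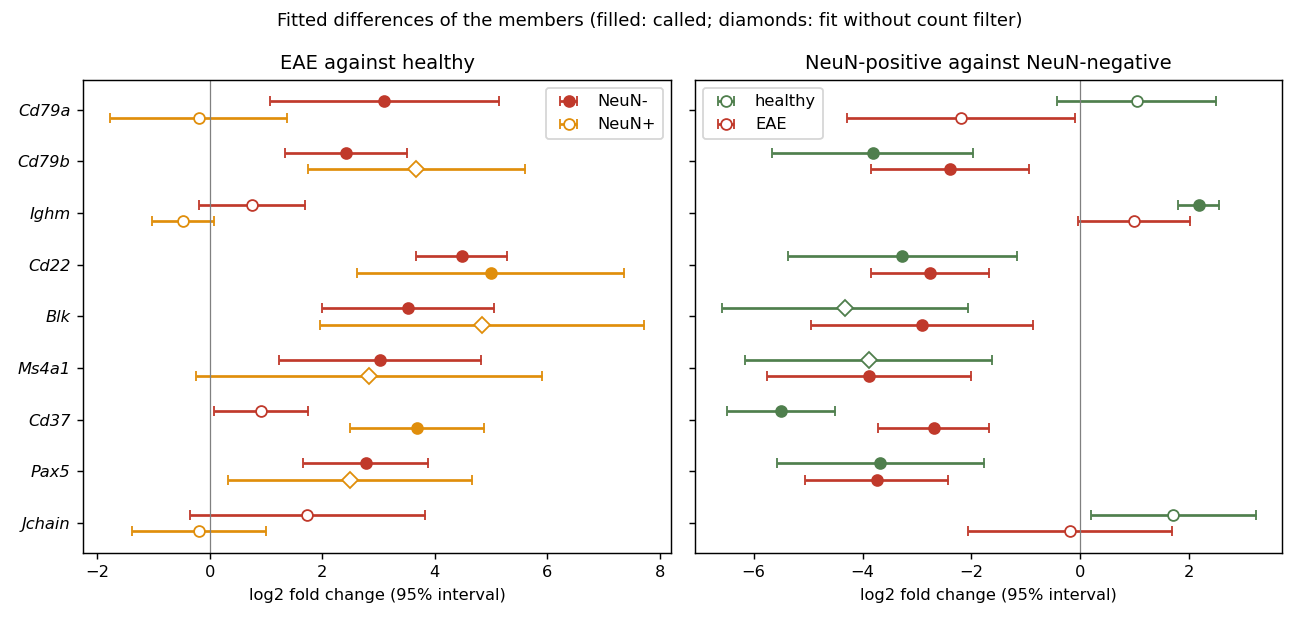
Log2 fold changes with 95% intervals of the 9 genes, for EAE against healthy mice in each sort (left) and for NeuN-positive against NeuN-negative nuclei in each condition (right); filled points were called, and diamonds are fits without the count filter. The 6 called NeuN-negative EAE values lie between 2.42 and 4.47, and Ighm is the 1 gene called higher in NeuN-positive nuclei, at 2.17.

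Between the sorts of healthy mice, 7 of the 9 genes were tested, 4 were lower in NeuN-positive nuclei and 1, Ighm, was higher. Over 17134 genes 23% were called lower and 22.8% higher. The 4 were Cd37 (-5.50 ± 0.45, adjusted p = 1.83e-06), Cd79b (-3.82 ± 0.85, adjusted p = 0.00279), Pax5 (-3.67 ± 0.87, adjusted p = 0.00424) and Cd22 (-3.27 ± 0.96, adjusted p = 0.0146). Their NeuN-positive libraries were all below the NeuN-negative ones, as for 17.2% of genes. Cd79b, Pax5 and Cd22 passed the count filter through their NeuN-negative libraries, so the filter itself favoured their separation. Healthy NeuN-positive counts in all were 20 for Cd79b, 17 for Pax5 and 14 for Cd22. Jchain was at 2.71 ± 1.87 CPM in NeuN-positive and 0.858 ± 0.589 CPM in NeuN-negative nuclei (1.70 ± 0.70, adjusted p = 0.0638). It was called higher with the replicate number as a block (1.79, adjusted p = 0.0122), without healthy NeuN-positive replicate 3 (1.88, adjusted p = 0.0371) and without the healthy 3 mouse (1.63, adjusted p = 0.0189).

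The sort comparisons use the same libraries as the EAE comparisons. In EAE mice all 9 were tested, 6 were lower in NeuN-positive nuclei and 0 higher. Over 17982 genes 14.8% were called lower and 15.5% higher. The main sort fits did not use the pairing by replicate number. With that number as a block 6 were lower and 1, Ighm, was higher (edgeR adjusted p = 0.00488), with 6792 genes called in either direction. The differences were -3.88 ± 0.89 for Ms4a1 (adjusted p = 0.00358), -3.74 ± 0.62 for Pax5 (0.000317) and -2.77 ± 0.52 for Cd22 (0.00082). These 3 had sorts that did not overlap, as 7.15% of genes did in this direction. Ms4a1 passed the count filter through its NeuN-negative libraries, so the filter itself favoured its separation. Blk (-2.91 ± 0.97, adjusted p = 0.0313), Cd37 (-2.70 ± 0.48, adjusted p = 0.000552) and Cd79b (-2.39 ± 0.69, adjusted p = 0.0148) were lower with overlapping sorts. With DESeq2 size factors the all-gene median shifted by -0.10 (log2) in this comparison, and the 6 calls were kept. The call of Blk was lost without NeuN-positive EAE replicate 1 (adjusted p = 0.0819), 3 (0.0556) or 5 (0.0759), and without NeuN-negative EAE replicate 3 (0.0534) or 4 (0.0795). Cd79a (-2.19 ± 0.997, adjusted p = 0.104) and Jchain (-0.19 ± 0.89, adjusted p = 0.888) were not called. Without mice EAE 2 and EAE 4 the 6 calls were kept, with Cd79b at -4.07, Pax5 at -4.76 and Cd22 at -3.44, and Jchain turned to 0.58 (adjusted p = 0.616).

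Ighm was the 1 gene of the 9 that was called higher in NeuN-positive nuclei of healthy mice. It was at 320.2, 332, 330.3, 350.1 and 222 CPM in healthy and 209, 102, 303, 191 and 261 CPM in EAE NeuN-positive libraries. All 5 healthy NeuN-positive libraries were above all 5 healthy NeuN-negative ones, as for 16.6% of genes, and healthy replicate 5 and EAE replicate 2 were the lowest of their groups. The healthy difference between NeuN-positive and NeuN-negative nuclei was a log2 fold change of 2.17 ± 0.17 (adjusted p = 1.28e-06). In EAE mice the difference was 0.99 ± 0.49 (adjusted p = 0.133), 1.28 with the replicate number as a block (adjusted p = 0.00488) and 1.75 without NeuN-negative EAE replicate 3 (adjusted p = 0.00606). Within NeuN-positive nuclei its EAE effect was -0.48 ± 0.26 (adjusted p = 0.236), or -0.12 (adjusted p = 0.723) without mice EAE 2, EAE 4 and healthy 3.

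The light chain and delta chain genes were scarce in NeuN-positive nuclei. Igkc, the kappa constant gene, was at 0.150, 0, 0.497, 0.0685 and 0.105 CPM in healthy NeuN-positive libraries, and Ighd at 0.999, 1.14, 0.497, 0.205 and 0.701 CPM. Both were highest in NeuN-negative EAE libraries, where Igkc was at 11.8, 2.21, 21.2, 5.004 and 2.92 CPM and Ighd at 13.3, 15.1, 42.9, 8.41 and 14.3 CPM. Per kilobase of exon, the mean level of Ighm was 534.6 times that of Igkc in healthy NeuN-positive, 40.7 times in EAE NeuN-positive, 12.1 times in healthy NeuN-negative and 3.44 times in EAE NeuN-negative nuclei. Against Ighd the same ratios of CPM per kilobase were 442.5, 163.8, 25.5 and 5.62. Both partners of Ighm rested on few reads in healthy NeuN-positive nuclei, with 12 counts of Igkc and 83 of Ighd over the 5 libraries. The genes whose log2 CPM was most like that of Ighm over the 20 libraries, looked up after its values were seen, were Pde1b (Pearson r = 0.965), Pip5k1c (0.959) and Sh3bp1 (0.959).

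**Figure D4:**
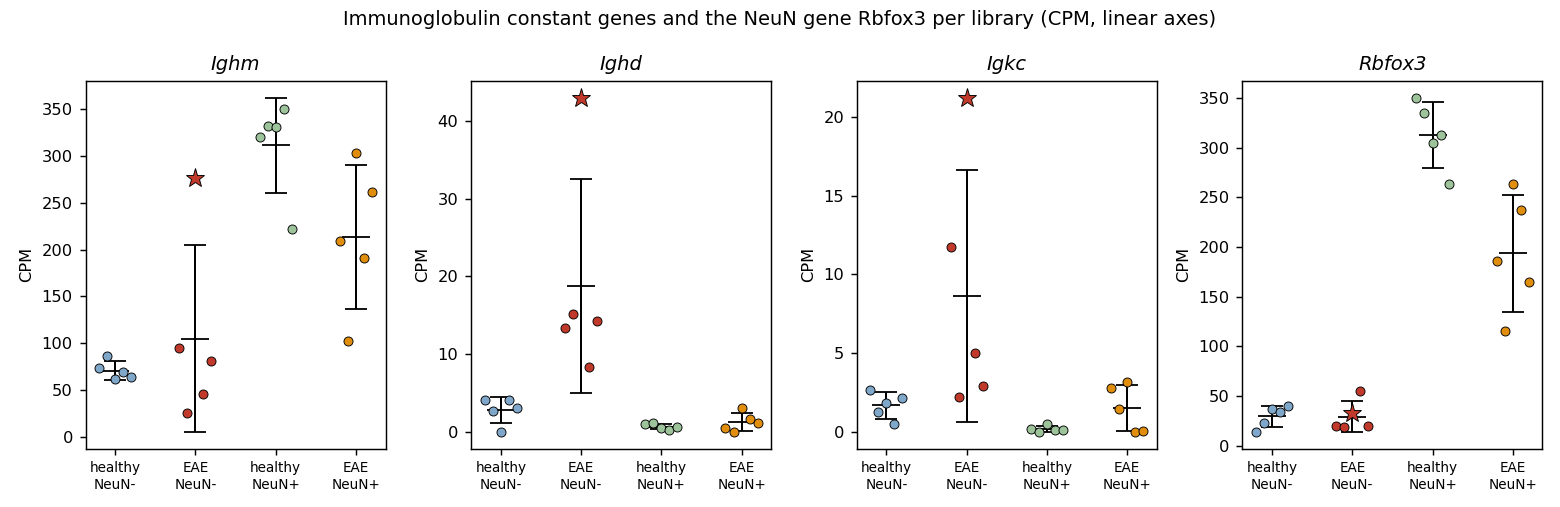
CPM (linear axes) of Ighm, Ighd, Igkc and the NeuN gene Rbfox3 in each library by group, with points for replicates 1 to 5, a star for NeuN-negative EAE replicate 3, and bars for mean ± SD. Ighm has its highest group mean, 310.9 CPM, in healthy NeuN-positive libraries, as does Rbfox3 at 313 CPM, whereas Ighd and Igkc have theirs in NeuN-negative EAE libraries.

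The EAE effect differed between the sorts for 1 of the 9 genes, Cd37, which on the log2 scale rose more in NeuN-positive nuclei (difference of log2 fold changes 2.87 ± 0.66, adjusted p = 0.021). Over 20444 genes, 1.74% were called in that direction and 0.822% in the other. Higher calls were 67.9% of all calls, and 50% with DESeq2 size factors, under which the all-gene median shifted by -0.25 (log2) and Cd37 was also called. This call was lost without NeuN-positive EAE replicate 2 (adjusted p = 0.0643), NeuN-positive healthy replicate 1 (0.0565) or 2 (0.0592), and NeuN-negative healthy replicate 2 (0.0511), and without mice EAE 2, EAE 4 and healthy 3 (0.0819). In mean CPM per kilobase of exon, Cd37 went from 14.2 to 23.4 in NeuN-negative and from 0.321 to 3.77 in NeuN-positive nuclei. The gain in mean level was thus larger in NeuN-negative nuclei, where the change was not called. Cd22 was called in both sorts, and its difference of 0.66 ± 0.99 had a 95% interval of -1.37 to 2.68. Cd79a had the largest difference in the other direction, -3.06 ± 1.28 (adjusted p = 0.193). The other genes had adjusted p from 0.31 to 0.984. Without the same 3 mice the difference went from 1.52 to 0.0742 for Cd79b and from 1.63 to 0.64 for Blk, from 0.22 to 0.96 for Ms4a1, and turned to -0.34 for Cd22 and -0.47 for Pax5, all of them uncalled.

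Levels between genes were compared per kilobase of exon. In NeuN-negative EAE nuclei the mean order was Ighm (55.7 ± 52.8 CPM per kilobase), Cd37 (23.4 ± 16.04), Cd79b (9.22 ± 5.37), Cd22 (5.71 ± 2.30), Blk (2.66 ± 1.31), Cd79a (2.41 ± 1.88), Pax5 (1.81 ± 1.11), Jchain (0.925 ± 0.582) and Ms4a1 (0.885 ± 0.431). The mean ± SD of each gene overlapped that of its neighbour in this order. In healthy NeuN-negative nuclei Ighm (37.7 ± 5.12) and Cd37 (14.2 ± 3.70) led, with no overlap of mean ± SD, followed by Cd79b (1.98 ± 0.972), and the other 6 were between 0.132 and 0.341 CPM per kilobase. In healthy NeuN-positive nuclei Ighm was at 165 ± 27.0 CPM per kilobase, and the next 2 were Jchain (1.08 ± 0.743) and Cd79a (0.7098 ± 0.254).

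Over the 20 libraries, Pearson's r of a gene's log2 CPM with the mean of the other 8 was 0.91 for Blk, 0.901 for Cd22, 0.846 for Pax5, 0.794 for Cd79b and 0.781 for Ms4a1. It was 0.61 for Cd79a, 0.601 for Cd37, 0.0543 for Jchain and -0.526 for Ighm. The libraries share the 4 groups and may share mice, so these values describe the groups as much as the genes. Outside the 9 genes, those most like their mean profile were Adgrg5 (r = 0.948), Il2rg, Gbp9, Xdh, BE692007, Tgtp2, Trbc1 and Ly6d (0.921). Il2rg encodes the common gamma chain of cytokine receptors, Trbc1 a T cell receptor constant region and Ly6d a surface protein of early B cells.

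Other B lineage genes were counted in the NeuN-negative comparison, in which 15.1% of all genes tested were higher and 12.6% lower, with a median of 0.05. Of 22 B cell receptor signalling genes 16 were higher and 2 lower in EAE, with a median log2 fold change of 2.25. Fcgr2b, the inhibitory Fc receptor, rose by 3.61 ± 0.43 (adjusted p = 2.52e-05), Vav1, an exchange factor, by 2.84 ± 0.40 (0.000109), and Lyn, a Src-family kinase, by 2.53 ± 0.37 (0.000138). Rasgrp3 (-2.23 ± 0.37, adjusted p = 0.000411) and Cd81 (-1.14 ± 0.40, 0.0426) fell. Lyn, Fcgr2b and Vav1 are also expressed in myeloid cells. Of 19 surface and identity genes 18 were tested and 13 were higher (median 2.46), among them Cd40, which receives T cell help, by 3.39 ± 0.50, Siglecg by 2.55 ± 0.42 and Ly6d by 5.02 ± 0.84. Of 13 B lineage transcription factor genes 9 were higher and 1, Tcf3, lower (-1.19 ± 0.37), with a median of 1.77. Ikzf3 rose by 4.29 ± 0.60, Ikzf1 by 1.80 ± 0.34 and Spi1, also a myeloid factor, by 2.10 ± 0.42, while Ebf1 was at 1.01 ± 0.43 (adjusted p = 0.0896).

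Of 15 plasma cell genes 4 were higher and 1 lower, with a median of 0.07 against 0.05 over all genes tested. In this NeuN-negative comparison 15.1% of all genes tested were called higher and 12.6% lower. Slamf7 (4.71 ± 0.62), Sdc1 (3.28 ± 0.55) and Irf4 (3.69 ± 0.69) rose, and Sec11c (-1.74 ± 0.42) fell. Mzb1 (-0.53 ± 0.61, adjusted p = 0.532), Xbp1 (-0.07 ± 0.40, adjusted p = 0.912) and Derl3 (-0.21 ± 0.75, adjusted p = 0.851), genes of the antibody secretion programme, were not called. Of 11 immunoglobulin constant genes 9 were in the table and 6 were tested. Ighg2c rose by 5.45 ± 1.04, Ighd by 2.98 ± 0.65, Iglc2 by 2.70 ± 0.92 and Igkc by 2.57 ± 0.68, and Ighg2b (3.15 ± 1.25, adjusted p = 0.0708) and Igha (2.30 ± 0.95, adjusted p = 0.0783) were not called.

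Of 18 genes of B cell survival and recruitment 14 were tested and 10 were higher, against 15.1% of all genes tested. Cxcl13, the chemokine that draws B cells through Cxcr5, had 1 count over the healthy and 435 over the EAE NeuN-negative libraries. Il21r rose by 3.33 ± 0.44 and Cxcr4 by 3.55 ± 0.55. Of 7 germinal centre genes 4 were tested and 2, S1pr2 (1.56 ± 0.36) and Bcl6 (0.87 ± 0.29), were higher. Of 12 B cell precursor genes 7 were tested and 2, Il7r (3.64 ± 0.48) and Lef1 (1.65 ± 0.42), both also T cell genes, were higher. Rag1, which recombines receptor genes in precursors, was at 1.47, 17.0, 0.447, 0.801 and 2.58 CPM in EAE NeuN-negative libraries, with replicate 2 the highest (2.76 ± 1.02, adjusted p = 0.0535). Vpreb1, Vpreb2, Vpreb3 and Igll1, of the precursor receptor, were below the count filter.

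Markers of several other leukocytes, though not all, rose in the same NeuN-negative libraries. There 15.1% of all genes tested were called higher in EAE and 12.6% lower. Of 12 T cell markers 11 were higher, and their sum was 91.6 to 227 CPM in healthy and 221 to 625 CPM in EAE libraries, of which Thy1, also a neuronal gene, made up a mean of 153 and 177 CPM. All 10 macrophage markers were higher, from sums of 65.6 to 114 to 658.5 to 2499.9 CPM. Neutrophil markers were higher for 5 of 6 tested and marrow granulocyte precursor markers for 6 of 6 tested. Of 4 plasmacytoid dendritic cell markers tested 1 was higher and 1 lower, with a median log2 fold change of -0.65. The sum of that list was 390 to 498 CPM in healthy and 125 to 384 CPM in EAE libraries. No T cell or macrophage marker was at 0 over the EAE group. Their part in the genes shared with B cells was not tested. Variable gene segments, summed after the values were seen, were not highest where Ighm was. The 175 heavy chain segments reached 87.6 CPM in NeuN-negative EAE replicate 2 and 60.6 CPM in replicate 4, against 4.41 CPM in replicate 3, 8.01 CPM in replicate 1 and 16.9 CPM in replicate 5. Replicates 2 and 4 are those with high olfactory and vomeronasal receptor gene levels.

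In NeuN-positive nuclei 6.55% of 16675 genes were called higher in EAE and 3.68% lower. Of 22 receptor signalling genes 20 were tested and 10 were higher, of 19 surface genes 12 were tested and 3 were higher, and of 15 plasma cell genes 13 were tested and 2 were higher. Transcription factor genes were higher for 3 of 10 tested, survival and recruitment genes for 5 of 10, precursor genes for 2 of 5 and germinal centre genes for 1 of 3. Inpp5d, the phosphatase SHIP1, rose by 3.83 ± 0.33 and Fcgr2b by 5.97 ± 0.57. Both immunoglobulin constant genes tested, Ighd and Ighg3, were not called. The EAE effect differed between the sorts for 1 of 22 receptor signalling genes (higher) and 1 of 13 transcription factor genes (lower). No such call was made among 19 surface, 15 plasma cell, 8 immunoglobulin constant, 15 survival and recruitment, 10 precursor and 4 germinal centre genes tested. Over 20444 genes, 1.74% had a higher and 0.822% a lower effect in NeuN-positive nuclei.

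**Figure D5:**
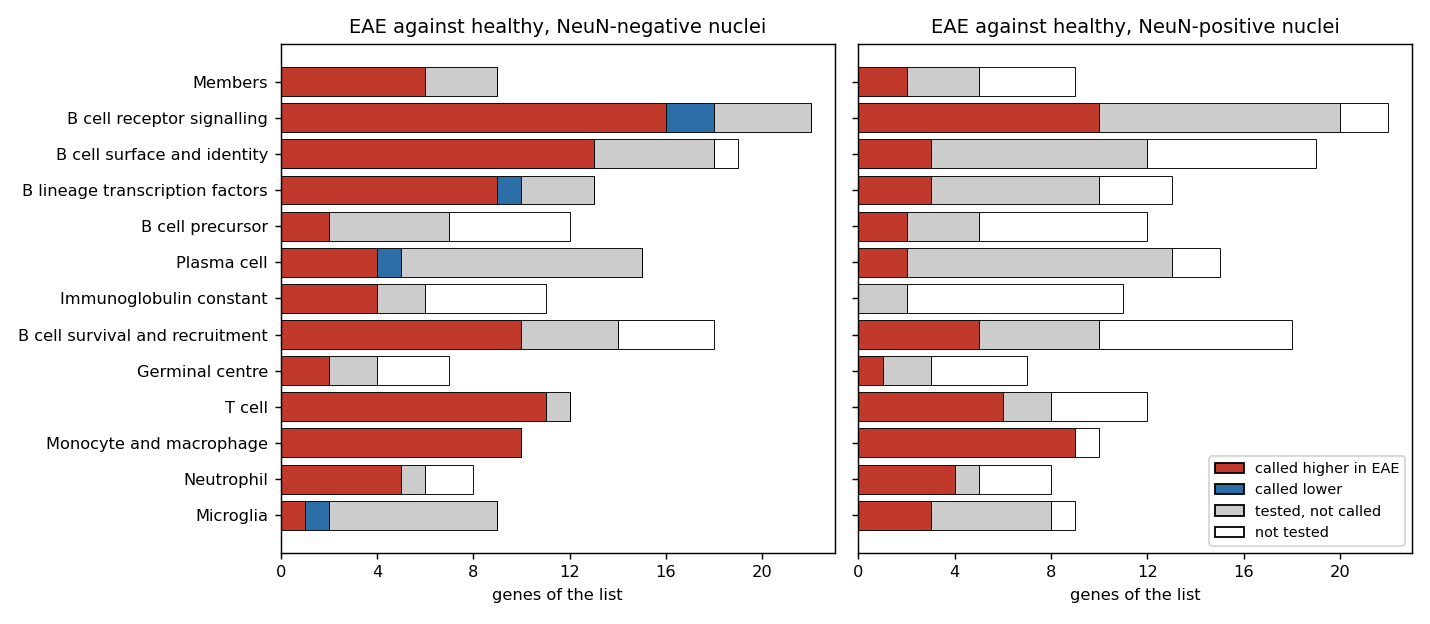
Number of genes of each list (x axis) called higher in EAE (red), called lower (blue), tested and not called (grey) and not tested (white), in NeuN-negative (left) and NeuN-positive nuclei (right). In NeuN-negative nuclei 16 of 22 receptor signalling genes were higher but 4 of 15 plasma cell genes, and T cell and macrophage markers were higher for 11 of 12 and 10 of 10.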

How the data were processed

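RNA of sorted nuclei was sequenced from 20 libraries in 4 groups of 5. The deposited table holds the authors' raw counts per gene, with no normalization. The submitters' processing notes name STAR 2.4, DESeq2, GRCm39 and mm10 without giving their roles. For the counting tool, annotation release and strand setting, the entry is: not given in the sources used here. Symbols, exon lengths and positions were matched by gene identifier to GENCODE M21 (GRCm38), and 42462 of 43629 identifiers had a symbol. The 1167 without one stayed in the fits and held 0.252% to 0.414% of counts.

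Each comparison was fitted on the whole table with edgeR 4.0.16 (R 4.3.3, limma 3.58.1): a filter on low counts by group, TMM scaling and the robust quasi-likelihood test, with Benjamini-Hochberg adjustment over all genes tested. The 2 EAE comparisons and the 2 sort comparisons used their own 10 libraries, and the difference of effects used all 20. The main fits treated libraries as independent and left out the pairing of the sorts by replicate number, which was an alternative. The code was tested on simulated data. Among 40 pairs of libraries within a group none was identical, and chi-square per gene was 11.1 to 392.8, far above sampling noise.

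The 9 genes and the accompanying lists were chosen with earlier results of these data known. From each pathway list up to 3 called genes in each direction with the smallest p were named, together with immunoglobulin constant, precursor and marker genes fixed by name. In addition the 8 genes most like the set and the 10 leading EAE NeuN-negative replicate 3 were named, except 1 that is not reported here. Csf1r, S100a8, Thy1, Cx3cr1, Fcrls and the genes most like Ighm were named after their values were seen.

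Replicate numbers were taken to pair the sorts, because the deviations of same-numbered libraries from their group means correlated in every pair. Their r was 0.175 to 0.447 in EAE and 0.366 to 0.751 in healthy mice. Pairs with different numbers overlapped these ranges, with r of -0.288 to 0.206 in EAE and -0.547 to 0.408 in healthy mice. Healthy NeuN-negative replicate 2 was closer to NeuN-positive replicate 1 (r = 0.408) than to its own number (0.366). The pairing is thus an assumption. The same numbers do not link EAE to healthy mice (r of -0.351 to 0.311 in NeuN-negative and -0.367 to 0.266 in NeuN-positive nuclei). Alternatives were DESeq2 size factors, DESeq2 1.42.0's Wald test, no count filter, a filter of 1 CPM in 5 libraries, the replicate block, one model of all 20 libraries, leaving out each library, and leaving out mice EAE 2, EAE 4 and healthy 3 together.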

Additional observations from a re-analysis of the deposited data

Results flagged for a closer look

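In each group of 5 libraries the gap between an extreme library and its nearest neighbour was set against the whole range of the group, a measure by which chance marks about 1 in 20 groups. Of 36 combinations of gene and group, 5 had such a library. Ighm stood at 276.1 CPM in NeuN-negative EAE replicate 3, above the other 4, and at 222 CPM in NeuN-positive healthy replicate 5, below the other 4. NeuN-positive EAE replicate 2 held the other 3, with Cd79b at 8.525 CPM and Pax5 at 3.315 CPM above the rest of its group and Ms4a1 at 0 CPM below it. For a gene at 0 in that library, 3 counts are 0.474 CPM. This lies within the 0.432 to 0.547 CPM of Ms4a1 in the other 4 libraries. NeuN-positive EAE replicate 2 had 7072200 counts, 9.35% mitochondrially encoded counts and summed macrophage markers of 1861 CPM, the highest of its group. Its oligodendrocyte markers summed to 97780.1 CPM, against 10723 to 49913 CPM in the other 4, and its neuron markers to 18703 CPM, the lowest of the 5. The part of these in its B cell gene levels was not tested.

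The EAE effect on Cd37 differed between the sorts, by 2.869 on the log2 scale, in edgeR's quasi-likelihood test of the difference itself (adjusted p = 0.021).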

How the results depend on the processing

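Each of 39 results for single genes was recomputed under its alternatives, giving 742 values, of which 685 kept their direction and their side of the threshold, 19 lost and 11 gained a call, and 27 changed sign. In NeuN-negative nuclei 4870 genes were called, against 10728 with DESeq2's Wald test and 8635 without a count filter. In NeuN-positive nuclei 1705 genes were called, against 4021 with DESeq2 and 878 to 3124 with 1 library left out. Of the 9 genes 2 were higher there, against 6 with DESeq2, 4 without a count filter, 5 in the model of all 20 libraries, 1 with the replicate block and 2 to 4 with 1 library left out. With that block, which does not pair these mice, Cd22 in NeuN-positive nuclei was at 5.27 (adjusted p = 0.0557, edgeR) and Cd79a in NeuN-negative nuclei at 3.03 (0.107).

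Between the sorts in EAE 5455 genes were called, against 9899 with DESeq2; of the 9 genes 0 were higher, against 1 with the replicate block and 0 to 1 with 1 library left out. In healthy mice 1 was higher, against 2 with DESeq2, with the block and without the 3 mice, and 1 to 2 with 1 library left out. The block changed no other call between sorts. The difference of effects was called for 524 genes, against 1632 with DESeq2, 268 without a count filter, 2492 with the replicate block and 93 to 1033 with 1 library left out. Of the 9 genes 1 was called in it, against 0 without the 3 mice and 0 to 1 with 1 library left out, and DESeq2 called 1 lower, Cd79a (-3.40, adjusted p = 0.039).

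Signs turned in uncalled results. Jchain between the sorts in EAE was at 0.13 without a count filter, 0.22 with the replicate block, 0.58 without the 3 mice and -0.45 to 0.0846 with 1 library left out. For the difference of effects, Ms4a1 was at -0.13 with DESeq2 size factors, -0.0396 with DESeq2 and -0.35 to 0.41 with 1 library left out. Pax5 was at -0.15, -0.17, -0.47 without the 3 mice and -0.71 to 0.60, and Cd22 at -0.34 without the 3 mice and -0.074 to 1.54. With 1 library left out, Ighm in NeuN-negative nuclei was at -0.00285 to 1.02, and Cd79a and Jchain in NeuN-positive nuclei at -0.67 to 0.0755 and -0.42 to 0.22. The cause was not tested. Cd79a and Jchain rested on 158 and 103 counts over the EAE NeuN-negative libraries, and Ms4a1 and Blk on 28 and 55 over the EAE NeuN-positive ones. Ighm, which also turned, held 83 to 4944 counts in single EAE NeuN-negative libraries. The part of counting error in these changes of sign was not tested.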
